A study of Mus musculus with 4 samples.

Results

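ID and B4 elements are short interspersed elements (SINEs) of rodents, and the reads described here are small RNAs that the deposited table places in class SINE under a name that begins with ID or B4. There were 7 such names (ID_B1, B4, B4A, ID4_v, ID4, ID2 and ID) among 857 names of SINE, LINE and LTR repeats. Each distinct sequence was counted once per library and given the name under which it had most reads over the 4 libraries. This rule uses read counts over all libraries, so the make-up of the members below is a description. The members were 105620 sequences with 1226946 reads, of 4496542 sequences and 40897884 reads in the table.

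Whole testis of mice aged 16 days was the source of the RNA. Wild type testes gave 2 libraries and testes labelled as Hsf5 knockdown gave the other 2, numbered 1 and 2 within each group. Hsf5 is the gene of heat shock factor 5, which regulates transcription in male germ cells, and the design text gives changes of piRNAs as the question. Per the labels' protocol, adaptors were ligated to the small RNAs and insert sizes of 18 to 40 bases were kept. The sources used here give neither the way Hsf5 was reduced, nor the mouse strain, nor any pooling of animals, and the table itself writes KO for the same libraries. Small RNA libraries do not measure the Hsf5 mRNA, so the knockdown itself was not checked.

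ID elements descend from the gene of BC1, a neuronal non-coding RNA that itself arose from a tRNA for alanine. B4 elements join an ID-like stretch to a B1-like stretch, and B1 descends from 7SL RNA, the RNA of the signal recognition particle. In the testis, copies of such repeats lie within the long precursor transcripts of piRNAs, small RNAs that are bound by PIWI proteins and mostly start with U. Fragments of rRNA and tRNA are common in small RNA libraries as well, and a short fragment can be placed in a repeat by resemblance.

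Counted reads totalled 11117460 and 9260452 for wild type 1 and 2, and 9619666 and 10900306 for knockdown 1 and 2. The germ cell miRNAs of the marker list were all found, 8 of 8, with a summed level of 11979 to 13737 RPM (reads per 1000000 counted reads) in wild-type testis and 14282 to 16988 RPM in knockdown testis. The gonadal somatic miRNA mir-202 ranged from 313 to 825 RPM over the 4 libraries, with the lowest value in knockdown 2. Blood miRNAs stood at 28.3 to 40.7 RPM, muscle miRNAs at 240 to 333 RPM and the liver miRNA mir-122 at 0.108 to 0.642 RPM. In whole testis, fewer cells of a type and less small RNA per cell cannot be told apart. Libraries of the same group were far from alike in knockdown testis: fragments from the 5' end of 28S rRNA took 50045 RPM of the whole table in knockdown 1 and 2059 RPM in knockdown 2, against 23971 and 26174 RPM in wild-type testis. The level of the members and their shares of piRNA length are therefore given with and without these fragments.

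The sequences that carry most of the reads are shown first, because they show what the labels ID and B4 were attached to. The first line is a contig of 104 bases grown from the reads of the table, and its capitals mark the commonest B4-labelled sequence. From general knowledge of rRNA it runs from the spacer before 28S rRNA into the 5' end of 28S rRNA, which begins at the first capital. The next lines are the commonest ID_B1-labelled and B4-labelled sequences.

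28S 5' end contig: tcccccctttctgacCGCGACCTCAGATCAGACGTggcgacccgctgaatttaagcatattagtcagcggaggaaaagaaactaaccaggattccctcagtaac
ID_B1, 17 nt: cgcgacctcagatcaga
B4, 20 nt: cgcgacctcagatcagacgt

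Below them stand the 34 first bases of tRNA-Gly-GCC, one of whose gene copies lies at chr1:170872554-170872624 (GRCm39, plus strand), and the 3 commonest distinct kinds of ID4_v-labelled sequence. Capitals in the tRNA mark bases 6 and 7, counted from its 5' end. Capitals in the reads mark the bases beside a missing base, or a substituted base.

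tRNA-Gly-GCC: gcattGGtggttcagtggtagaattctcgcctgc
ID4_v, 30 nt: gcattGTggttcagtggtagaattctcgcc
ID4_v, 31 nt: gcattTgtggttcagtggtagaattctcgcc
ID4_v, 29 nt: gcaTGTggttcagtggtagaattctcgcc

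The commonest ID4-labelled sequence ends in CCA, the bases added to mature tRNAs, in capitals. It is compared with the end of a tRNA-Ala-TGC whose gene lies at chr11:48725256-48725327 (GRCm39, minus strand).

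tRNA-Ala-TGC end: ccgggttcgatccccggcatctccaCCA
ID4, 18 nt: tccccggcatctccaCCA

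Mature let-7i-5p (RefSeq, seed bases 2 to 8 in capitals) is followed by the commonest ID_B1-labelled sequences that hold it, with the added base in capitals. The reads are written with T, as deposited.

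let-7i-5p: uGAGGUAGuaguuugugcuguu
ID_B1, U added: tgaggtagtagtttgtgctgttT
ID_B1, A added: tgaggtagtagtttgtgctgttA

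The last set has piRNA length, taken here as 25 to 31 nt, and a 5' T (the U of the RNA) in capitals. These are the commonest such sequences of ID_B1, B4 and ID4_v that match no rRNA, tRNA or miRNA.

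ID_B1, 25 nt: Taggagcaggactatcaagggctta
ID_B1, 30 nt: Tgaatttctgaactccctgcttttaccttc
B4, 28 nt: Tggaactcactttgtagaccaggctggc
B4, 25 nt: Tagaaggacagagtcaacacacaca
ID4_v, 26 nt: Taagcactctacgactgagccacatc

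Most reads with these labels matched another RNA. Of the member reads, 70.2% were an exact part of, or within 1 edit of, an rRNA, a tRNA or a miRNA, or held at least 17 bases of a miRNA with up to 4 bases added, where an edit is a substituted, added or missing base. Fragments of the 28S 5' end were 55.4% of all member reads, tRNA fragments 7.26% and miRNAs 6.48%. The other 29.8%, 365126 reads of 102458 sequences, matched none of these and are called the remaining reads below. Beyond the annotated rRNA genes, 28S rRNA was searched only through the contig of 104 bases. Fragments of the rest of 28S rRNA could thus stand among the remaining reads, and the rRNA-like shares may be too low. When only the rRNA genes annotated in the reference were used, the rRNA-like share was 0.407%, since GRCm39 as used here holds no exact copy of the 28S end, and it was 56.5% with the contigs and 1 edit allowed. Reads with an exact place in the genome were 27.5% of member reads.

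The printed ID_B1 and B4 fragments were the most abundant sequences under these labels. The 17 nt sequence held 31% of all member reads and the 20 nt sequence 23.7%. They had 83560 and 88097 reads in wild type 1, 86634 and 70698 in wild type 2, 202619 and 127075 in knockdown 1, and 7507 and 5422 in knockdown 2. Knockdown 1 was above and knockdown 2 below the wild type libraries for each of them. Neither has a place in the genome with 0 or 1 substitutions. With 2 substitutions the 17 nt sequence has 58 places and the 20 nt sequence has 0.

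The name of these fragments varied from library to library. The 17 nt sequence was deposited as the LINE L1MC5a in wild type 1 and knockdown 2, as the LINE L1MC4a in wild type 2, and as ID_B1 in knockdown 1 alone. It became a member because knockdown 1 held most of its reads. The 20 nt sequence was B4 in wild-type testis and the SINE RSINE1 in knockdown testis. Fragments of 18 and 19 nt with the same start, of 89242 and 78479 reads, fell just outside the members, under B1_Mus1 and the LTR name MMERVK10D3_LTR. The members held 67.2% of all 28S 5' end reads of the table.

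Among 15137 member sequences found in at least 2 libraries, 16.8% had different names in different libraries, and these held 75.1% of the reads of such sequences. For 44.4% of the reads of such sequences even the class (SINE, LINE, LTR or another) differed. Of all member reads, 29.1% had been deposited under another name. With the names as deposited, ID_B1 stood at 5089, 6865, 25395 and 4197 RPM in wild type 1 and 2 and knockdown 1 and 2. B4 stood at 9967 and 9850 RPM in wild-type testis and at 4165 and 1562 RPM in knockdown testis, which do not overlap. With 1 name per sequence, B4 stood at 9907 and 9848 RPM against 15699 and 1951 RPM, which do overlap.

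The level of all members together was 28394 and 30329 RPM in wild-type testis (29362 ± 1368, SD, n = 2) and 50088 and 13631 RPM in knockdown testis (31860 ± 25779, SD, n = 2). The knockdown libraries lay on either side of the wild type, and the exact two-sided permutation test gave p = 1, where 2 libraries against 2 cannot go below 0.33. Members, 28S fragments included, were 35.2% and 36.8% of SINE reads in wild-type testis and 45.9% and 22.7% in knockdown testis. The 28S 5' end fragments among them stood at 15685, 17230, 34623 and 1208 RPM, in the order wild type 1, wild type 2, knockdown 1, knockdown 2. Without those fragments the members stood at 12709, 13099, 15465 and 12423 RPM, in the same order, so that the wild type libraries lay between the knockdown libraries at much closer values. The remaining reads alone were at 8289 and 9700 RPM in wild-type testis and 10200 and 7801 RPM in knockdown testis (exact permutation p = 1).

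**Figure D1:**
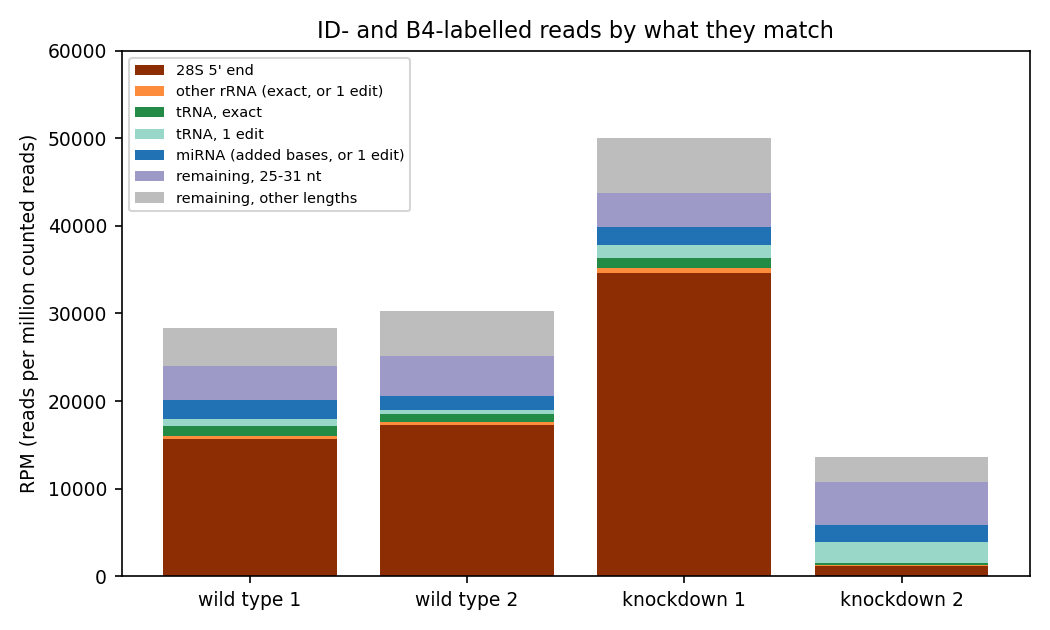
Stacked bars of the member reads in each library, in RPM, by what they match. The 28S 5' end part runs from 1208 RPM in knockdown 2 to 34623 RPM in knockdown 1, while the remaining reads lie between 7801 and 10200 RPM.

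The names differed in what they held. ID_B1, an ID-B1 composite, had 46.8% of member reads, B4 30.5%, B4A 13.5%, ID4_v 5.89%, ID4 2.83%, ID2 0.351% and ID 0.232%. In ID_B1, 66.3% of the reads were 28S 5' end fragments and 10.6% were miRNA-like. In B4, 79.6% were 28S 5' end fragments. In ID4_v, 72.3% were within 1 edit of a tRNA, and in ID4, 71.3%. B4A, ID2 and ID were mostly remaining reads, with 86.6%, 98.4% and 94.5%, which can still hold rRNA fragments that were not searched for. The commonest ID-labelled sequences, with 431 and 367 reads in all, had 0 exact places in the genome. In knockdown 2 they had 5 and 3 reads. Their source was not tested.

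**Figure D2:**
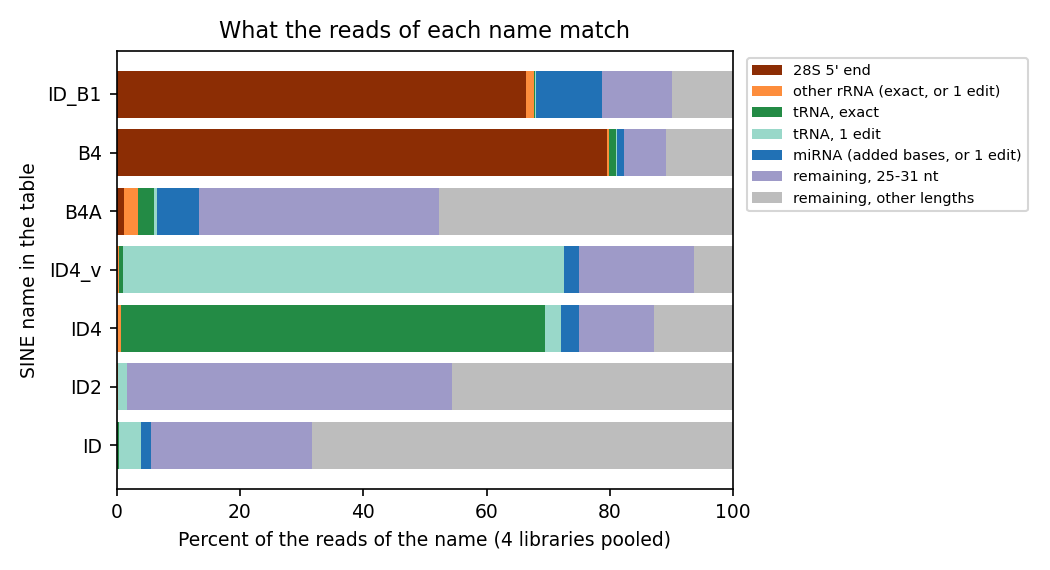
Percent of the reads of each name, over the 4 libraries pooled, by what they match. ID_B1 and B4 are mostly 28S 5' end, ID4_v and ID4 mostly tRNA, and B4A mostly reads that match none of these (86.6%).

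Length differed between the kinds of match. Nearly all 28S 5' end fragments (99.98%) and miRNA-like reads (99.6%) had 16 to 24 nt, while 90.6% of the tRNA-like ID4_v reads had 25 to 31 nt. The remaining reads were split, with 182894 reads of 16 to 24 nt and 175599 of 25 to 31 nt. Reads of 16 to 24 nt were 80.9% of member reads, with 82.9% and 83.4% in wild-type testis, 89.4% in knockdown 1 and 44.2% in knockdown 2. Reads of 25 to 31 nt were 18.3% (16.3% and 16.1% in wild-type testis, 10.4% and 52.3% in knockdown testis, exact permutation p = 1), and longer reads 0.831%. Without the 28S fragments the share of 25 to 31 nt was 36.3% and 37.2% in wild-type testis and 33.8% and 57.3% in knockdown testis (exact permutation p = 1). The commonest length was 17 nt in ID_B1, 20 nt in B4, 18 nt in ID4 and 30 nt in ID4_v. B4A peaked at 26 nt. For either length class and each library, the 95% Wilson interval reached at most 0.254 percentage points from the share, which covers counting error only and not the spread between animals, since PCR reads without molecular identifiers are not independent molecules.

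**Figure D3:**
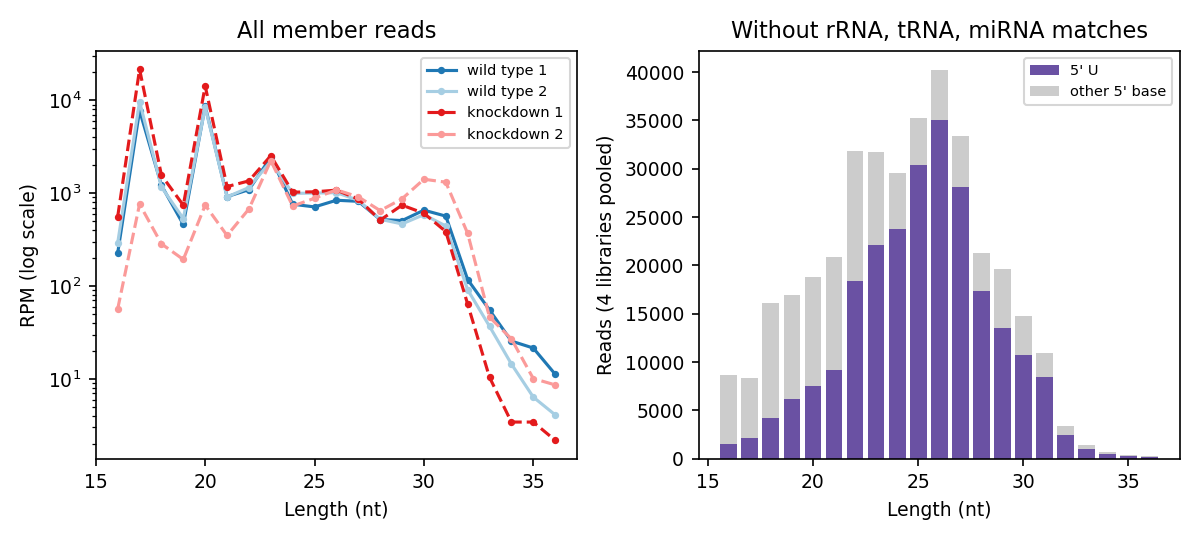
Left, RPM (log scale) of all member reads by length in nt, 1 line for each library. Right, reads of the 4 libraries pooled that match no rRNA, tRNA or miRNA, by length and 5' base; the peaks at 17 and 20 nt on the left are absent on the right, where the commonest length is 26 nt, mostly with 5' U.

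tRNA-like reads came from opposite ends of their tRNAs in ID4 and ID4_v. In ID4, 24604 reads (70.9%) matched tRNA-Ala, the tRNA that ID elements resemble, and 97.2% of these ended in the CCA of the mature tRNA. The commonest ID4 sequence, with 59.3% of the name's reads, had 7825, 5505, 6050 and 1204 reads in wild type 1 and 2 and knockdown 1 and 2. Its letters occur in tRNA-Ala-CGC and tRNA-Ala-TGC models, at 6 gene copies. With its CCA it also has 2 exact places in the genome, and which source gave its reads was not tested. Only in wild type 1 was it deposited as ID4. In the other libraries it was deposited under LINE or LTR names. It was chosen after its values were seen. tRNA-Ala reads of ID4 stood at 843 and 695 RPM in wild-type testis and 741 and 152 RPM in knockdown testis, and knockdown 2 was the lowest.

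ID4_v reads held the other end of another tRNA. Of 72245 reads, 81.1% were within 2 edits of tRNA-Gly-GCC, 0 were exact, and 98.9% of those within 1 edit started at its first base. The 30 nt sequence printed above lacks 1 of the identical neighbouring bases at positions 6 and 7, which cannot be told apart, and had 3309, 1647, 4337 and 9613 reads, in the order used above. The 31 nt sequence carries the substitution G6T, with the tRNA base first, and had 2361, 934, 2157 and 5975 reads. The 29 nt sequence lacks 1 of the identical bases at positions 4 and 5 and 1 of those at positions 6 and 7. None of these has an exact place in the genome.

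The unedited fragments of the same tRNA, which are not members, had the same order of libraries. Exact 5' fragments of tRNA-Gly-GCC stood at 4914 and 2741 RPM in wild-type testis and 11038 and 19238 RPM in knockdown testis. The ID4_v reads within 2 edits of it stood at 791 and 449 RPM against 1574 and 2797 RPM. For every 100 exact fragments there were 16.1 and 16.4 such ID4_v reads in wild-type testis and 14.3 and 14.5 in knockdown testis (exact permutation p = 0.33, the smallest possible). All other ID4_v reads stood at 342 and 374 RPM in wild-type testis and 341 and 287 RPM in knockdown testis. In each of the first pair of measures each knockdown value exceeded each wild-type value, and in the other ID4_v reads each lay below either wild-type value.

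**Figure D4:**
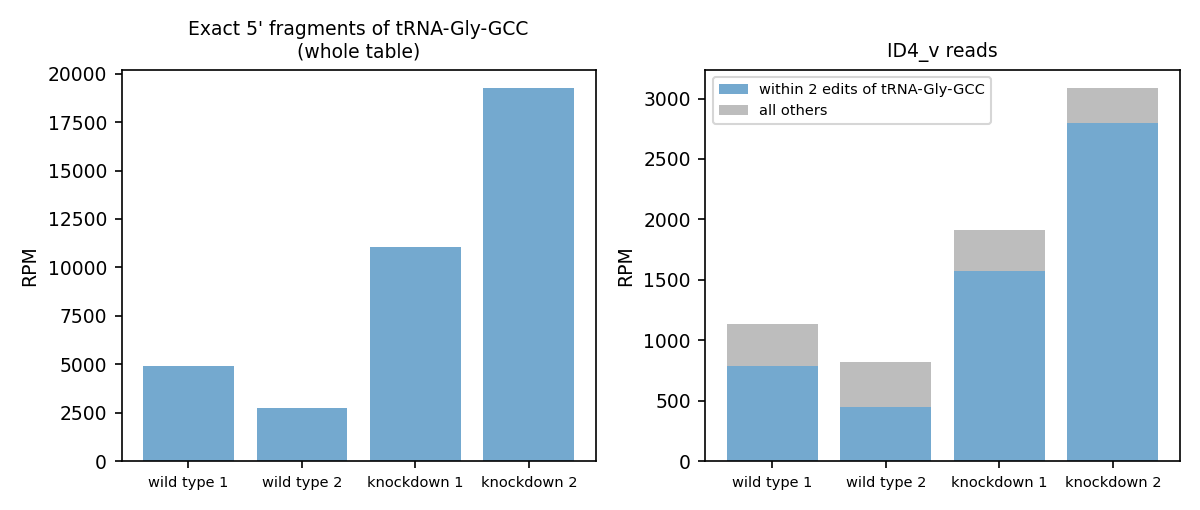
RPM in each library of exact 5' fragments of tRNA-Gly-GCC over the whole table (left) and of ID4_v reads (right), split into those within 2 edits of that tRNA and all others. The tRNA-like part runs from 449 to 2797 RPM while the other ID4_v reads stay between 287 and 374 RPM.

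miRNA-like reads held the first 17 or more bases of a mature miRNA, followed by up to 4 other bases. These are called added bases here, whether they follow the full miRNA or stand in place of its last bases. There were 75568 such reads, from 191 miRNAs. let-7i-5p and miR-26a-5p gave 69.9% of them, and 83.5% were 23 nt long. The addition was U only in 53.1%, A only in 39.9% and other in 7.02%, and 91.3% of the reads had no exact place in the genome. Member reads of let-7i-5p, a miRNA of the let-7 family of differentiation-linked miRNAs, numbered 25.1 and 24.99 in wild-type testis and 24.2 and 24.5 in knockdown testis for every 100 reads of its full-length mature form. For miR-26a-5p (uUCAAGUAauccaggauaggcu) the same ratio was 6.68, 7.28, 6.31 and 8.62. let-7g-5p (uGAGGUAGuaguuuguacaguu), which shares the let-7 seed, had 2.41, 2.24, 2.09 and 1.97. The let-7i-5p ratio thus varied little between the 4 libraries, and that of miR-26a-5p was highest in knockdown 2. miR-501-3p with 1 added G is an exception to the lack of a genomic place: the sequence ending in this G had 1 exact place. It was the third of the B4 sequences by reads, with 844, 466, 595 and 705 reads.

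Among member reads, piRNA length with a 5' U was the lesser part. Reads of 25 to 31 nt with 5' U were 11.8% of member reads, with 11.04% and 12.5% in wild-type testis and 6.39% and 29.3% in knockdown testis (exact permutation p = 1). Without the 28S fragments this share was 24.6% and 28.9% against 20.7% and 32.1%, and without all rRNA- and tRNA-like reads 30.03% and 33.3% against 25.99% and 41.1% (exact permutation p = 1 for each). The level of such reads among the remaining reads was closer between libraries, at 3120 and 3780 RPM in wild-type testis (3450 ± 467, SD, n = 2) and 3189 and 3979 RPM in knockdown testis (3584 ± 559, SD, n = 2; exact permutation p = 0.667). The groups overlapped. The share was lowest in knockdown 1, where 28S fragments were highest, and highest in knockdown 2, where they were lowest. Without the 28S fragments knockdown 1 was still the lowest (20.7%) and knockdown 2 the highest (32.1%). The level of these piRNA-length reads lay inside the wild type range in knockdown 1 and above it in knockdown 2. The cause of the differing shares was not tested.

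Within 25 to 31 nt, 5' U was on 64.3% of all member reads and on 81.9% of the remaining reads. The remaining reads had 79.8% and 84.5% in wild-type testis and 82.9% and 80.7% in knockdown testis. By name, the share of 5' U among all reads of 25 to 31 nt was 86.4% in ID_B1, 85.2% in B4, 84.4% in B4A and 73.7% in ID4. In ID4_v it was 8.49%, and its commonest reads of that length start with the G of tRNA-Gly-GCC. ID4_v reads of this length with 1 exact place in the genome, 4751 reads, had 5' U in 89.1%. Base 10 was A in 23.9% of the remaining reads of 25 to 31 nt, and in 22.6% of those without 5' U; an A there is the mark of piRNAs made by the amplification cycle in which PIWI proteins cut complementary transcripts. Reads of 25 to 28 nt, the usual range of piRNAs bound by MILI, outnumbered longer ones: 25.9% of the remaining reads of 25 to 31 nt had 29 to 31 nt, the lowest value being 15.1% in knockdown 1. The remaining reads still include ID4_v reads with 2 edits to tRNA-Gly-GCC. The 29 nt one printed above, which starts with G, had 3947 reads. Of 13478 remaining ID4_v reads of 25 to 31 nt, 4928 had 5' U. Such reads enter the shares of 5' U and of 29 to 31 nt given for the remaining reads.

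Other SINE names were compared on the same measures. Reads of 25 to 31 nt were 40.1% of reads under the 15 B1 names and 31.9% under the 5 B2 and B3 names, with 5' U on 80.2% and 82.7% of them. rRNA- or tRNA-like reads (exact, or within 1 edit for sequences of other names with at least 20 reads) were 63.8% of member reads, 15.9% of B1 reads and 4.49% of B2 and B3 reads. In each of the 4 libraries the member value was the highest of the 3: 63.4%, 62.5%, 75.5% and 28.9% for the members against 15.2%, 16.8%, 25.4% and 3.59% for B1. RSINE1, named here after its value was seen because it takes 28S fragments too, had 43.4%. The rRNA contigs were started from member sequences, and the naming rule placed the commonest 28S fragments among the members. Part of this contrast was therefore set by how members and contigs were chosen. These differences between names were not tested.

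The remaining reads of piRNA length that had 1 place in the genome came mostly from known piRNA loci. Whether these places lie in annotated copies of ID or B4 elements was not measured. Of the remaining reads of 25 to 31 nt, 76.2% had 1 exact place in the genome, 9.09% had several and 14.7% had none. Of the reads with 1 place, 71.5% lay inside 1 of the 214 piRNA loci that the table itself names (64.4% and 77.5% in wild-type testis, 74.7% and 70.3% in knockdown testis). Of these loci, 191 held at least 1 such read. By name, the share was lowest in ID (30.4%) and ID4 (41.8%). Of the remaining reads of 16 to 24 nt with 1 place, 46.9% lay inside these loci too. That share was 34.3% and 53.5% in wild-type testis and 42.6% and 61.3% in knockdown testis. Reads placed inside loci were 95742 of all 175599 remaining reads of 25 to 31 nt. Their level was 1943 and 2703 RPM in wild-type testis and 2231 and 2536 RPM in knockdown testis (exact permutation p = 1), where the groups overlapped. All remaining reads of this length stood at 3908 and 4473 RPM in wild-type testis and 3847 and 4929 RPM in knockdown testis. Within each locus almost all reads lay on 1 strand, the commoner strand of each holding 99.6% in sum. Inside the loci 89.3% had 5' U, and outside them 78.3%; inside was higher than outside in each of the 4 libraries (88.7% against 73.1%, 88.9% against 77.6%, 90.5% against 78.4% and 89.2% against 83.9%). ID4 was an exception, with 83.2% inside and 83.5% outside, and a lower value inside in every library but wild type 1. For ID4_v the value inside was lower in knockdown 2 alone (89.7% against 90.1%).

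The strongest source was the locus 17-qA3.3-27363 (chr17:27507250-27544002, minus strand for most reads, mm39), with 30.7% of these reads and 717, 727, 873 and 576 RPM in wild type 1 and 2 and knockdown 1 and 2. Next were 9-qC-31469 on chromosome 9 with 7.80% (121, 220, 174 and 220 RPM), 2-qE1-35981 on chromosome 2 with 7.76%, 14-qA3-19970 on chromosome 14 with 6.64% and 17-qA3.3-26735, the neighbour of the first, with 5.59%. The 5 together gave 58.5%. At 2-qE1-35981 the values were 111, 209, 197 and 217 RPM, and at 17-qA3.3-26735 they were 104, 123, 197 and 106 RPM. The groups overlapped at these 4 loci. At 14-qA3-19970, with 86.2 and 164 RPM against 205 and 175 RPM, the knockdown values were higher than either wild-type value. Of the 191 loci with member reads, 9.95% had both knockdown libraries above and 14.7% both below the wild type. The loci were taken by their number of reads.

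Some loci with member reads were at or near 0 in knockdown 1. Of 68 loci with at least 100 such reads, 14 had at most 3 reads in knockdown 1, and 0 had so few in any other library; these loci were chosen by this value, so it is given as a description. Together they had 1973, 3196, 4 and 2997 reads. At 7-qD1-19431 (chr7:72755060-72796527, mm39) the counts were 326, 493, 0 and 507. A count of 0 in knockdown 1 allows up to 0.312 RPM, against 29.3, 53.2 and 46.5 RPM in wild type 1, wild type 2 and knockdown 2. The remaining loci together stood at 1766, 2358, 2231 and 2261 RPM.

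By GENCODE annotation, the reads of 25 to 31 nt with 1 place fell in exons on the sense strand for 27.0%, sense introns for 28.8%, antisense introns for 27.5%, antisense exons for 0.825% and outside genes for 15.9%. The commonest ID_B1 sequence of this kind, the 25 nt one above, lies at chr14:24132279-24132303 (GRCm39, plus strand), in an exon of the long non-coding RNA gene Gm52992 and in the locus 14-qA3-19970. It had 539, 819, 1234 and 1054 reads. The knockdown libraries were both above the wild type libraries there, with a log2 difference of 0.74 (SE 0.64, edgeR quasi-likelihood adjusted p = 1.0).

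The 30 nt ID_B1 sequence lies at chr17:27513910-27513939 (GRCm39, minus strand), inside 17-qA3.3-27363 and antisense to an intron of Gm65436. It had 729, 706, 90 and 528 reads, the knockdown values lying below the wild type values. A 27 nt sequence with the same start, at chr17:27513913-27513939, had 548, 421, 649 and 281 reads, so the longer form was the lower of the pair in knockdown 1 and the higher in the other libraries. In knockdown 1 the forms of 29 to 31 nt were also the smallest part of all remaining piRNA-length reads, as given above.

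B4 sequences of this kind included a common repeat sequence. The 28 nt one has 29748 exact places in the genome and was deposited as B1_Mus2, as the LTR name MTA_Mm, as B1_Mus1 and as B4 in the 4 libraries, with 142, 174, 112 and 298 reads. The 25 nt one has 1 place, at chr17:27569036-27569060 (GRCm39, plus strand) in 17-qA3.3-26735, outside annotated genes, with 151, 115, 327 and 63 reads. The knockdown libraries were the highest and the lowest for it. The ID4_v example of 26 nt lies at chr9:67646046-67646071 (GRCm39, plus strand) in 9-qC-10667, outside annotated genes, with 41, 75, 68 and 97 reads. Sequences of 27 and 28 nt with the same start stood next to it in rank, with 244 and 203 reads in all.

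Likeness to the ancestral RNAs was low. Among the remaining reads 0.433% lay within 15% edits of BC1 (chr7:144468199-144468374, GRCm39) and 0.0616% within the same limit of 7SL. The BC1-like share was 5.76% in ID4_v and 3.6% in ID4. Sequences with at least 1000 exact places were 161, with 0.454% of the remaining reads.

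The comparison of knockdown with wild type was also fitted over all repeat names. At a Benjamini-Hochberg adjusted p of 0.05, the edgeR quasi-likelihood test called 0 of 834 names (0%) and 0 of the 7 members, and DESeq2 called 0. At an unadjusted p under 0.05, 6 names were higher (0.719%) and 2 lower (0.24%), and among the members 1 was higher. CPM below are reads per 1000000 repeat reads after TMM scaling. Among all names tested, 12.7% had each knockdown library above each wild type library, and 7.55% had each below. Of the 7 members, 3 lay above (B4A, ID4_v and ID2) and 1 below (ID4) on this scale. As RPM, ID4_v and ID2 still lay above, while B4A (3710 and 4386 against 4935 and 3275 RPM) and ID4 overlapped. The median log2 difference was 0.10 over the members, 0.04 over all 834 names and -0.01 over the 30 other SINE names, of which 14 were higher and 16 lower in sign and 0 were called.

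ID4_v had 4442 and 2830 CPM in wild-type testis and 6378 and 14514 CPM in knockdown testis, a log2 difference of 1.52 (SE 0.48; adjusted p = 0.998 by edgeR). The name was chosen with this difference known, so the value is a description. Without rRNA- and tRNA-like reads its log2 difference was 0.60 (SE 0.37). The groups then held 1857 and 1638 CPM against 1863 and 3419 CPM. Those values still include ID4_v reads with 2 edits to tRNA-Gly-GCC.

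ID_B1 had 48607 and 48627 CPM in wild-type testis and 87746 and 22484 CPM in knockdown testis, with a log2 difference of 0.18 (SE 0.64). B4 had 38842 and 33883 CPM against 52293 and 9182 CPM, with -0.24 (SE 0.80). In each of them 1 knockdown library lay on either side of the wild type. Without rRNA- and tRNA-like reads ID_B1 had a difference of 0.03 (SE 0.21) and B4 of 0.01 (SE 0.22), and the 4 libraries of B4 lay between 7405 and 8003 CPM. B4A had 14547 and 15089 CPM against 16438 and 15415 CPM, with 0.10 (SE 0.25). ID4 had 4260 and 3307.4 CPM against 3307.2 and 1809 CPM, with -0.56 (SE 0.38), and its groups overlapped as RPM (1086 and 961 against 993 and 384). ID2 differed by 0.38 (SE 0.34) and ID by -0.07 (SE 0.33). All 7 adjusted p-values from edgeR were 0.998. Scaling by mature miRNA reads moved the median of all names from 0.04 to -0.25, and with it ID_B1 to -0.04 and B4A to -0.19.

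**Figure D5:**
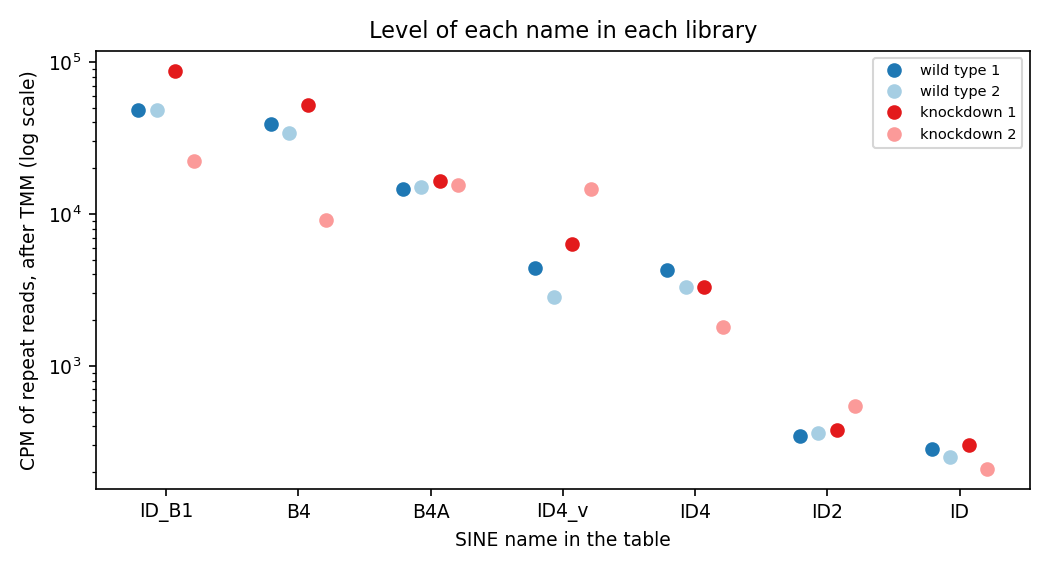
Level of each name in each library, as CPM of repeat reads after TMM scaling (log scale), 1 point for each library. ID_B1 and B4 have 1 knockdown library above and 1 below the wild type libraries, and ID4_v has both knockdown libraries above.

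The differences depended on the knockdown libraries that stand apart. ID_B1 went in opposite directions, with a log2 difference of -1.22 without knockdown 1 and 0.85 without knockdown 2. B4 had -2.09 and 0.52, ID4 -1.17 and -0.19, and ID4_v 1.89 and 0.81. The lone knockdown library was in each case assumed to vary like the wild type.

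At the level of single sequences, the edgeR test called 0 of 127017 sequences (0%), of which 1521 were members, and DESeq2 called 0. At an unadjusted p under 0.05, 63 of the 127017 sequences were higher and 717 lower, among them 7 and 5 of the 1521 members. Of these members, 5 of the higher and 2 of the lower were within 1 edit of a tRNA. The others, 2 higher and 3 lower, were remaining sequences. Each knockdown library lay above each wild type library for 12.1% of member sequences and below for 11.97%, against 10.7% and 16% of all sequences. The median log2 difference was -0.05 over the members and -0.10 over all sequences. For the 17 nt 28S fragment it was 0.38 (SE 1.23) and for the 20 nt fragment -0.19 (SE 1.20). The ID4_v sequence of 30 nt had 1.41 (SE 0.66), with both knockdown libraries above the wild type.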

How the data were processed

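The deposited table gave, for each sequence and library, the raw read counts made by the authors, not normalized; repeated lines of a sequence and library were counted once. The authors also deposited a ratio for each library, a scaling factor equal to 1000000 divided by the mature miRNA reads, used only as an alternative. Cutadapt and the build mm39 are named per the submitters' processing notes; the sources used here give no aligner or mismatch setting. Members were matched to GRCm39 exactly, to GENCODE rRNA genes, to 365 tRNA gene models found by a cloverleaf search without introns, to RefSeq mature miRNAs (sequences only) and to 28S and 5.8S end contigs grown from the reads, with edlib 1.3.9.post1 for edits. The contigs were started from abundant member sequences and were added after the table was seen. Members and lists were chosen with earlier results of these data known. Names followed a rule: every ID or B4 name, and in ID_B1, B4 and ID4_v the 5 commonest sequences and the 3 commonest of piRNA length with 5' U; other sequences and loci named were picked after their values were seen.

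Counts were tested with edgeR 4.0.16 (robust quasi-likelihood, TMM, at least 1 CPM in 2 libraries; SE taken as the log2 difference over the root of F) over all names or sequences, tested on simulated data first. The simulated counts varied less than these data, whose biological coefficient of variation was 0.363 over names and 0.847 over sequences. The simulation therefore does not show how the test performs at this spread. DESeq2 1.42.0 was an alternative. Shares were compared with exact two-sided permutation tests over 6 assignments. Nothing beyond the labels' words "biol rep" says how the libraries were separated, so p-values measure the spread between these libraries.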

Additional observations from a re-analysis of the deposited data

How the results depend on the processing

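With 2 libraries a group, no share or level test could reach 0.05. Leaving out 1 library moved the difference in member level (knockdown minus wild type, 2498 RPM with all libraries) between -15730 and 20726 RPM, that in the share of 25 to 31 nt reads (15.2 points) between -5.73 and 36.1 points, and that of piRNA length with 5' U (6.07 points) between -5.38 and 17.5 points. The sign turned without knockdown 1 for the level and without knockdown 2 for both length measures. Leaving out 1 library moved the difference in exact matches to annotated rRNA genes, contigs not counted, between -0.244 and -0.0736 points. That in exact tRNA matches moved between -2.02 and -1.09 points. With the 28S and 5.8S contigs added, the mean rRNA-like share was 56.8% in wild-type and 39.5% in knockdown testis. That difference of -17.3 points was not refitted with 1 library left out. Called names ran from 0 to 80 and called sequences from 0 to 18329. The calls came without knockdown 1 (80 names, 9614 sequences) or without knockdown 2 (45 names, 18329 sequences).

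Per 1000000 mature miRNA reads the level difference was -15872. The tRNA-like difference of -1.55 points became 6.73 with 1 edit allowed and 0.00539 over distinct sequences. The difference in piRNA length with 5' U became -0.394 points without the 28S fragments. Log2 differences whose sign turned were those of B4 (0.0126 without rRNA- and tRNA-like reads, 0.0623 for 25 to 31 nt, and -2.09 to 0.524 leaving out 1 library), B4A (-0.189 with miRNA scaling, and -0.0503 to 0.1498 leaving out 1 library), ID (0.185 for 25 to 31 nt, and -0.462 to 0.171 leaving out 1 library), ID4 (0.0369 without rRNA- and tRNA-like reads) and ID_B1 (-0.0418 with miRNA scaling, -0.0793 for 25 to 31 nt, -0.130 with the replicate block, and -1.22 to 0.852 leaving out 1 library). Differences that kept their sign but moved by over 1.5 times included, with the names as deposited, B4 at -1.79, ID_B1 at 1.27 and ID4 at -1.19, and, with the replicate block, B4 at -0.73. The cause was not tested.

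The groups share library numbers, but nothing says that these pair libraries. Over names, the difference between libraries 1 and 2 correlated between the groups at r = 0.285. With the replicate block edgeR called 0 names and 0 sequences. Of 137 alternative values, 109 kept their direction and side of the threshold, or moved by less than the spread between libraries. The alternatives without the 28S fragments, without all matched reads and with the contigs were chosen after seeing the data.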
